A study of Mus musculus with 2 samples.

Results

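Dividing cells of the mouse mammary gland, in both libraries of the series, were chosen by the raw counts of 6 cell cycle genes. A cell was taken when the unique molecular identifiers (UMIs, each standing for 1 captured RNA molecule) of Top2a, Mki67, Pclaf, Ube2c, Cdk1 and Birc5 summed to at least 10, with at least 4 of these 6 genes detected. Only barcodes that showed 500 or more genes, and no more than 10% of UMIs from mitochondrial genes, were considered. The rule found 100 dividing cells among 8909 kept cells, 21 of 3416 in the library called Ctrl and 79 of 5493 in the library called cKO. These values chose the cells, so the levels of the 6 genes are given as a description.

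The study asked, by its title, how the microRNAs miR-200c and miR-141 limit the activity and the pattern of the estrogen receptor ERα through the cyclin gene Ccnd1. Both libraries came from C57BL/6 mice with the genotype miR-200c/141-flox/flox, and the cKO mice carried K8-CreERT2 as well, a tamoxifen-dependent Cre recombinase under the promoter of keratin 8, which is active in luminal epithelium. Tamoxifen was given at 8 to 10 weeks of age in both groups, and glands were collected 4 weeks later for sorting (FACS) of mammary cells and 10x Chromium 3′ v2 sequencing. The labels also list an age of 8 weeks, which differs from those times, and the number of mice pooled in a library is not given in the sources used here. With 1 library in each group no difference between groups could be tested. Intervals are 95% intervals for counting error only, and genotype, mice, sort and depth cannot be told apart.

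The adult mammary duct has an inner layer of luminal cells, marked by keratins 8 and 18, and an outer layer of contractile basal cells, marked by keratin 14. Luminal cells include a hormone-sensing kind, here read by the prolactin receptor gene Prlr, and a kind primed for milk secretion, here read by Wfdc18, which encodes a secreted whey-type protein. Between divisions the cell cycle genes are held down by Rb-family proteins, E2F factors and the MuvB complex, and E2F factors then switch on DNA synthesis genes before the B-Myb and FoxM1 factors drive the genes of mitosis. The later genes often carry a cell cycle homology region (CHR) and CCAAT boxes, the binding letters of NF-Y, in their promoters.

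Promoter windows were read from RefSeq for the 6 genes of the rule, each running from 250 bases before to 50 bases after the gene's start, in build GRCm38.p6. Those of 5 genes are shown because they hold motif letters that occur at different rates in late and early cell cycle genes. The windows are chr11:99024140-99024439 on the minus strand for Top2a, chr7:135716330-135716629 on the minus strand for Mki67, chr2:164769679-164769978 on the plus strand for Ube2c, chr10:69352863-69353162 on the minus strand for Cdk1 and chr9:65890073-65890372 on the plus strand for Pclaf. Capitals mark every match on either strand to 1 of 3 motifs. The CHR was searched as TTTGAA and, in its other form, as TTCGAA. The box of NF-Y was searched as CCAAT. The E2F motif was searched as TTTCCCGC, as TTTCGCGC, as TTTGCCGC and as TTTGGCGC, and no match was left out for overlapping another.
Top2a: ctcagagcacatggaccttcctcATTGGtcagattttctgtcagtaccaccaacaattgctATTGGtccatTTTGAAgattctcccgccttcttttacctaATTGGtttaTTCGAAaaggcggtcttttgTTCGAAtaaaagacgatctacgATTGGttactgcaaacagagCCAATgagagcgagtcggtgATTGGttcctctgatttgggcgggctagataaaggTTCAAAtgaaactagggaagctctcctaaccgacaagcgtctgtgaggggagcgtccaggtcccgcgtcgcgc
Mki67: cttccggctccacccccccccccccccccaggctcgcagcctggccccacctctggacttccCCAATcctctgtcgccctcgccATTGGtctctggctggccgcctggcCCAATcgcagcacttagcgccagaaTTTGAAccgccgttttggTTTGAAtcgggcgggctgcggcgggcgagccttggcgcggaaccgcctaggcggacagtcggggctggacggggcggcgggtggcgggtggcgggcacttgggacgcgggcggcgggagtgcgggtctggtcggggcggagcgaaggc
Ube2c: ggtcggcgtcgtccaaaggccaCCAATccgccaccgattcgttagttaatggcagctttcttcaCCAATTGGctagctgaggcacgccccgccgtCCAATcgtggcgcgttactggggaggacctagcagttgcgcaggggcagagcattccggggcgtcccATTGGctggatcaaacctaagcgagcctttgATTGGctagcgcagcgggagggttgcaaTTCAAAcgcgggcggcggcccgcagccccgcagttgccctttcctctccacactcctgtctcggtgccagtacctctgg
Cdk1: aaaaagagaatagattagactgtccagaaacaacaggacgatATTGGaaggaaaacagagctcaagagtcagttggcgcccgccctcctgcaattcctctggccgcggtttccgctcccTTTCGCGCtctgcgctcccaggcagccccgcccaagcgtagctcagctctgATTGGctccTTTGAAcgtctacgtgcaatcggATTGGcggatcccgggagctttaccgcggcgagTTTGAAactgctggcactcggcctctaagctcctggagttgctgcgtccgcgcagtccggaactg
Pclaf: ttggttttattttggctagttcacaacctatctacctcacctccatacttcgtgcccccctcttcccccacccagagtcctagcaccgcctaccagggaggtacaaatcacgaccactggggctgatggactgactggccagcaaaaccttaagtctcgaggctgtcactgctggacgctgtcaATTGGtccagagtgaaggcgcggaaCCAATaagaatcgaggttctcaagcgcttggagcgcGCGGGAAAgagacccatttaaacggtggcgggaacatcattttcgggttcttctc

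Top2a, which encodes the topoisomerase that untangles replicated DNA, held 4 CHR and 6 CCAAT matches, the nearest CHR 23 bases before the start. Mki67, the gene of the Ki-67 protein that coats mitotic chromosomes, held 2 CHR and 3 CCAAT matches. Ube2c, the ubiquitin-conjugating enzyme of the anaphase-promoting complex, held 1 CHR and 6 CCAAT matches. Cdk1, the kinase of mitotic entry, held 2 CHR matches, 3 CCAAT matches and 1 E2F match. Pclaf, whose product binds the replication clamp PCNA, held 2 CCAAT matches and 1 E2F match, which spans the start, and no CHR match. The window of Birc5, which encodes survivin of the chromosomal passenger complex, held none of these letters.

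The same letters were counted over the windows of whole gene lists. A CHR match was found in 72.9% of 48 windows of G2 and M phase genes, in 10.8% of 37 windows of S phase genes and in 17.7% of all 23745 windows. A CHR match together with a CCAAT match was found in 62.5% of the G2 and M phase windows against 8.11% of the S phase windows and 7.11% of all windows. E2F letters showed the opposite pattern, with 0 of the 48 G2 and M phase windows, 32.4% of the S phase windows and 2.59% of all windows holding a match. The windows covered 44 of 54 G2 and M phase genes and 32 of 40 S phase genes, some genes having more than 1 window. A match is a description of letters and not evidence of binding.

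The dividing cells stood well apart from the other cells in the genes that chose them. No UMI of the 6 genes was found in 3001 Ctrl cells (87.9%) and 5039 cKO cells (91.7%), and a single UMI in 308 and 311 cells. The summed UMIs of the 6 genes ran from 13 to 418 with a median of 68 in the 21 Ctrl dividing cells, and from 10 to 354 with a median of 62 in the 79 cKO ones. The dividing cells held 78.1% of all UMIs of these genes in Ctrl and 91.6% in cKO.

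**Figure D1:**
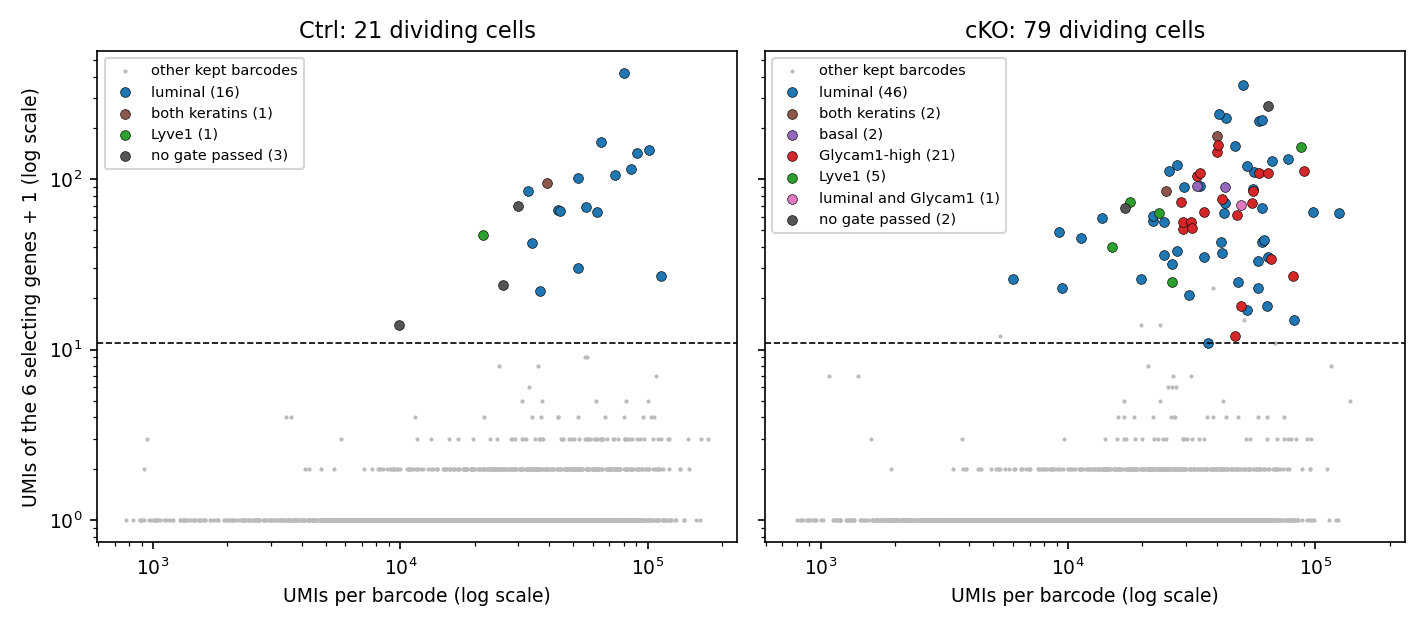
Summed raw UMIs of the 6 genes of the rule plus 1 (y axis, log scale) against all UMIs of the barcode (x axis, log scale), 1 point for each kept cell and 1 panel for each library, with dividing cells coloured by lineage. The dashed line marks 10 UMIs, and the 7 grey cKO points on or above it had UMIs in fewer than 4 of the 6 genes.

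Just outside the rule in Ctrl were a pair of cells with 8 UMIs each over 4 genes, and just inside was 1 cell with 13. In cKO the cells just inside held 10 and 11 UMIs over 4 genes. A further 7 cKO cells reached at least 10 UMIs but over fewer than 4 genes, and Pclaf supplied 30 of their 103 UMIs.

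Birc5 was found in all 100 dividing cells, Cdk1 in 96, Top2a in 94, Mki67 in 93, Pclaf in 92 and Ube2c in 86. Ube2c varied most widely in raw UMIs, from 0 to 233 per cell with a median of 8. Mki67, the gene most often used in tissue staining of dividing cells, had a median of only 4 UMIs per dividing cell. All 6 genes were found together in 16 of the 21 Ctrl and 54 of the 79 cKO cells.

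Dividing cells held more UMIs than the rest. Their median total was 52170 UMIs in Ctrl (9885 to 113214) and 41883 in cKO (5985 to 124484), against 19746 and 13827 in the other kept cells. Within the luminal class, 16 of 16 Ctrl and 41 of 46 cKO dividing cells had more UMIs than the median of the other luminal cells. Because the rule counts raw UMIs, a deep cell passes it more easily. After each cell was thinned to 5000 UMIs, with 179 Ctrl and 543 cKO cells left out as too shallow and the rule lowered to 3 UMIs over 2 genes, 19 of 3237 Ctrl cells (0.587%) and 72 of 4950 cKO cells (1.45%) passed. Unthinned, the shares were 0.615% in Ctrl (0.381 to 0.938) and 1.44% in cKO (1.14 to 1.79). The share was thus higher in cKO with and without thinning. The cKO library was the shallower one, and the libraries also differed in make-up. By the lineage gates given below, basal cells were 30.9% of kept cells in Ctrl and 16.4% in cKO. Glycam1-high cells were 1.38% and 5.72%. The part of this make-up in the share was not tested. Scrublet, a doublet caller, marked 33 Ctrl and 55 cKO kept cells and none of the 100 dividing cells. The median doublet score was nevertheless higher in dividing than in other cells, 0.0702 against 0.0469 in Ctrl and 0.0773 against 0.0332 in cKO.

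Each dividing cell was placed in a lineage by 6 genes, with levels given as UMIs per 10000 UMIs of the cell. Luminal cells had at least 20 of Krt18, basal cells at least 5 of Krt14, Glycam1-high cells at least 50 of Glycam1 and Lyve1 cells at least 1 of Lyve1. Of the 100 cells, 62 were luminal, 21 Glycam1-high, 6 Lyve1, 3 passed both keratin gates, 2 were basal, 1 passed the luminal and the Glycam1 gate and 5 passed none. Of all kept cells, 62.5% in Ctrl and 68.7% in cKO were luminal, and 1.38% and 5.72% were Glycam1-high. In Ctrl 16 of 21 dividing cells (76.2%) were luminal and 0 were Glycam1-high. In cKO 46 of 79 (58.2%) were luminal and 21 (26.6%) Glycam1-high. With cells placed by their highest marker list, each list scaled, an alternative chosen after seeing the data, these shares were 45.6% and 6.33%.

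Luminal cells made up most of the dividing cells in both libraries, as they did of all kept cells. In cKO they were 58.2% of dividing against 68.7% of kept cells, and in Ctrl 76.2% against 62.5%. In Ctrl 16 of 2136 luminal cells were dividing (0.749%, 0.429 to 1.21), and in cKO 46 of 3771 (1.22%, 0.894 to 1.62). These intervals overlap. Krt18 in the dividing luminal cells ran from 69.2 to 242.6 per 10000 with a median of 167 in Ctrl and from 53.4 to 368.8 with a median of 137 in cKO. The other luminal cells had medians of 163 and 196. The Krt18 gate chose both groups, so these levels describe the cells and do not support their class. All 62 dividing luminal cells also had the luminal marker list, which includes Krt18, as their highest list without scaling. With each list scaled, fewer cKO dividing cells were luminal, as given above.

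Both kinds of luminal cell held dividing cells. Among cells with Prlr above its gate of 2 per 10000 and Wfdc18 below its own gate of 2, 7 of 580 were dividing in Ctrl (1.21%, 0.487 to 2.47) and 20 of 1210 in cKO (1.65%, 1.01 to 2.54). Among cells with Wfdc18 alone, 3 of 643 were dividing in Ctrl (0.467%, 0.0963 to 1.36) and 8 of 1067 in cKO (0.750%, 0.324 to 1.47). Of these 2 kinds the Prlr-only cells had the higher share in each library, with overlapping intervals. Over both libraries the shares were 1.51% of 1790 Prlr-only cells, 0.643% of 1710 Wfdc18-only cells, 0.984% of 2236 cells with both and 1.17% of 171 with neither. Of cells with both, 6 of 848 were dividing in Ctrl and 16 of 1388 in cKO. The cells with both that were not dividing were deeper, with medians of 47093.5 and 26731.5 UMIs. Prlr-only cells had 21801 and 12746.5, and Wfdc18-only cells 20228 and 12760. The part of depth in these shares was not tested.

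**Figure D2:**
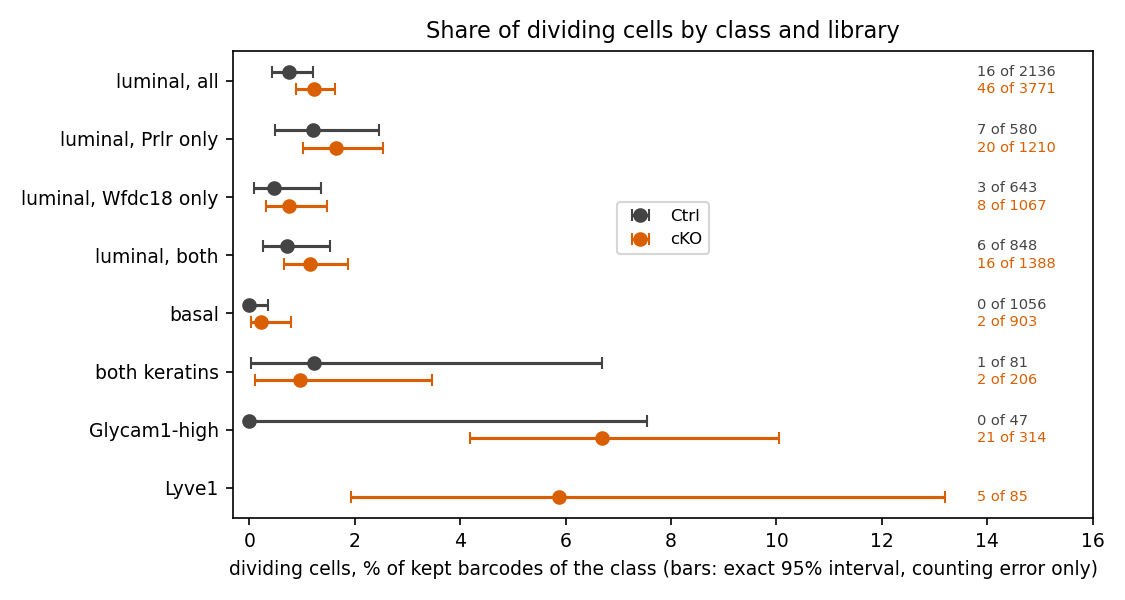
Share of kept cells that were dividing (x axis, percent) by class and library, with exact 95% intervals for counting error and the counts at the right. The 5 Ctrl cells of the Lyve1 class are not drawn. The Glycam1-high class of cKO has the highest share drawn, 6.69%, and the basal class has 0 of 1056 cells in Ctrl and 2 of 903 in cKO.

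Basal cells rarely met the rule. None of 1056 Ctrl basal cells did, which allows a share of up to 0.349%, and 2 of 903 cKO basal cells did (0.221%, 0.0268 to 0.798). Basal cells were shallower than luminal cells, with a median of 10347 UMIs against 28759.5 in the Ctrl cells that were not dividing. The 2 dividing basal cells held 196 and 282 UMIs of Krt14, 89 and 71 of Krt5, another basal keratin, and 419 and 401 of Acta2, the smooth muscle actin of contractile cells. A further 3 dividing cells passed both keratin gates, 1 of them with 1147 UMIs of Wfdc18 and 36 of Krt5, and in 2 of the 3 Krt18 exceeded Krt14. Whether these hold 1 cell or a pair was not tested beyond the doublet calls.

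The Glycam1-high dividing cells were endothelial by their other genes and, with the class set by the Glycam1 gate, came from cKO alone. Glycam1 encodes a mucin-like ligand on the high endothelial venules by which lymphocytes enter lymph nodes, and the lactating mammary epithelium also makes it. Of 314 Glycam1-high cKO cells 21 were dividing (6.69%, 4.19 to 10.0), against 0 of 47 in Ctrl (0 to 7.55%), and these exact intervals overlap. Glycam1 in the 21 cells ran from 55.8 to 1920 per 10000 with a median of 777, against a median of 1356 in the other Glycam1-high cells. In luminal dividing cells of the same library its median was 1.21 and its highest value 6.32, with a UMI in 45 of 46 cells, so that a few UMIs of Glycam1 alone mark no cell.

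Pecam1, an adhesion protein of all endothelium, was found in 21 of 21 Glycam1-high dividing cells, from 1.37 to 12.4 per 10000 with a median of 6.04. It was found in 2 of 46 luminal dividing cells of cKO. Chst4, a sulfotransferase that makes lymphocyte homing ligands, had 155 counts per 1000000 (CPM) in the dividing and 160 in the other Glycam1-high cells. Plvap, of endothelial diaphragms, had 1130.4 and 950.3 CPM, and Fut7, a fucosyltransferase of the same ligands as Chst4, 241 and 260. Of the 6 venule list genes 1 was at least 2-fold higher in dividing than in other cells of this class and 0 lower. Their median log2 ratio was -0.07, and Glycam1 itself had -0.73. Over all genes, 8.92% were that much higher and 3.89% lower. Madcam1, an addressin, had 58.3 against 3.34 CPM, but 1 cell held 70.7% of its UMIs. The 1 dividing cell that passed both the luminal and the Glycam1 gate held 182 UMIs of Krt18, 1735 of Glycam1 and 38 of Pecam1.

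The remaining dividing cells were mainly of other vessels. The 6 Lyve1 cells, 1 in Ctrl and 5 in cKO, held 6 to 58 UMIs of Lyve1, a hyaluronan receptor of lymphatic vessels, and 2 to 9 UMIs of Prox1, the lymphatic transcription factor. Their highest marker list was the blood endothelial one in 4 cells and the lymphatic one in 2. Against the other Lyve1 cells of cKO, 4 of 6 lymphatic markers were at least 2-fold lower in the 5 dividing cells and 0 higher. Their median log2 ratio was -1.24, with Prox1 at -0.36. Over all genes in this class, 18.1% were that much lower. In cKO 5 of 85 Lyve1 cells were dividing (5.88%, 1.94 to 13.2), but with cells placed by their highest marker list 2 of 83 (2.41%). All 5 cells that passed no gate held Pecam1, with 3, 13 and 31 UMIs in Ctrl and 5 and 13 in cKO. The Ctrl cells with 3 and 13 UMIs held 35 and 44 UMIs of the high endothelial venule list, and 0 and 2 of Glycam1. By highest marker list, 4 of 58 blood endothelial cells were dividing in Ctrl (6.90%) and 5 of 126 in cKO (3.97%). Markers of other cell types were also found in dividing cells. UMIs of the fibroblast list were found in many dividing luminal cells of each library and reached 224 in a Ctrl and 176 in a cKO cell. Col1a1, a collagen gene of that list, had 0 UMIs in the dividing cells of both libraries. In the Glycam1-high cells the lymphatic list ran from 3 to 1683 raw UMIs, against 17 to 164 in the Lyve1 cells. The B cell list reached 37 UMIs in the Glycam1-high cells and the leukocyte list 14. Dcn, a matrix proteoglycan gene and the 1 fibroblast marker measured in luminal cells, was higher in dividing than in other luminal cells of both libraries, with log2 ratios of 1.41 and 1.05. The part of such RNA in the results was not tested.

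The position of each dividing cell in the cycle was read from lists of 40 S phase genes and 54 G2 and M phase genes without the genes of the rule. The S phase share is the percentage of the UMIs of both lists that fell on S phase genes. It had a median of 42.7% in Ctrl (5.95 to 76.1) and 35.7% in cKO (3.35 to 72.6). The luminal cells had medians of 43.5% in both libraries, the Glycam1-high cells 34.1% and the 5 cKO Lyve1 cells 16.7%. S phase UMIs outnumbered the others in 5 of 16 Ctrl luminal, 18 of 46 cKO luminal, 5 of 21 Glycam1-high and 0 of 5 Lyve1 cells of cKO.

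The 2 ends of the Ctrl range are shown by single cells. The cell with the highest S phase share, 76.1%, was a Prlr-only luminal cell with 26 UMIs of Pclaf and 1 of Ube2c. The cell with the lowest, 5.95%, was luminal with Prlr and Wfdc18 and held 233 UMIs of Ube2c and 24 of Pclaf. The split at 50% depends on how the lists are weighted: with each gene scaled to its mean, S phase led in 61.9% of Ctrl and 46.8% of cKO cells in place of 28.6% and 30.4%. No share of cells in S phase is read from it.

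**Figure D3:**
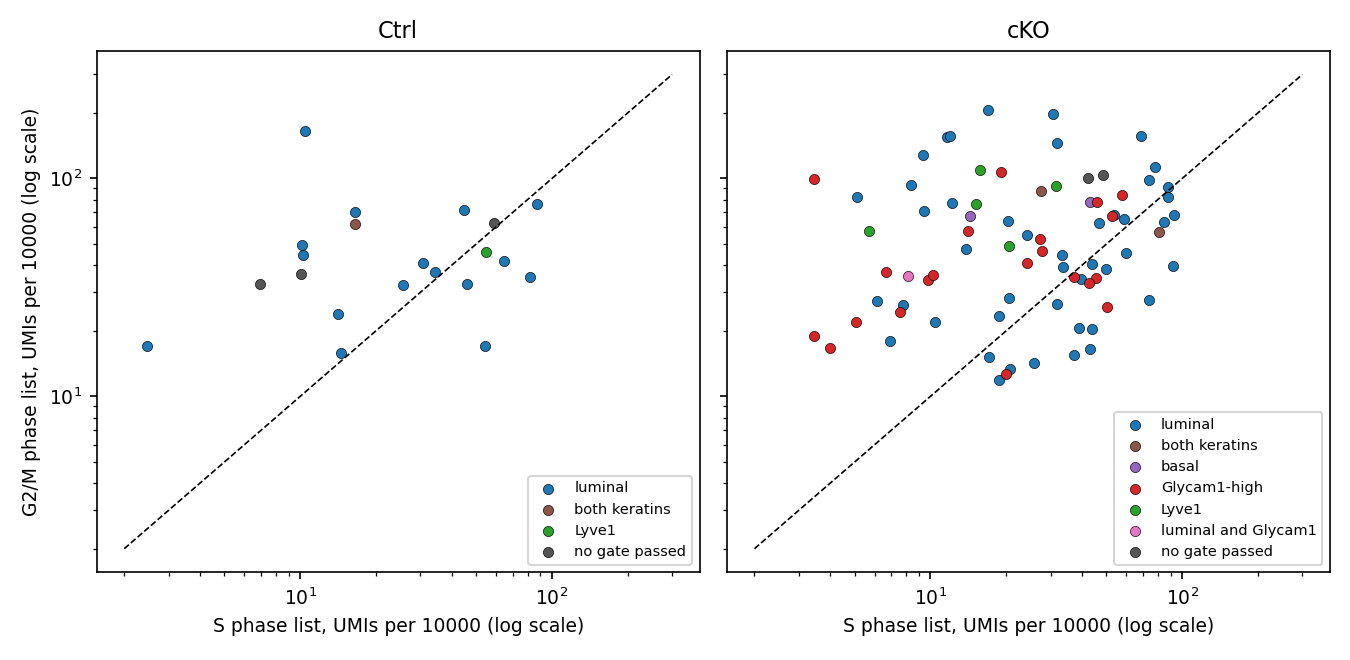
UMIs of G2 and M phase genes (y axis) against UMIs of S phase genes (x axis), both per 10000 UMIs on log scales, for each of the 100 dividing cells, coloured by lineage, with 1 panel for each library. The dashed line marks equal levels, and 6 of 21 Ctrl and 24 of 79 cKO cells lie on its S phase side, below it.

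S phase genes were higher in the median dividing cell than in the median of the rest, with overlapping ranges. The S phase list had a median of 25.7 per 10000 in the dividing cells of Ctrl and 27.3 in those of cKO, against 3.54 in the other cells of each library. Among other cells with at least 5000 UMIs, 0 of 3216 in Ctrl and 5 of 4871 in cKO lay above the median of the dividing cells. The lowest dividing cell held 2.47 per 10000 in Ctrl and 3.43 in cKO, and only 24.5% and 47.7% of the other cells lay under it.

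Dividing luminal cells were next set beside the other luminal cells of their own library, on summed counts scaled to CPM. The rule used this contrast, so the ratios describe the cells and support nothing. In Ctrl 780 of 10356 genes with at least 20 UMIs (7.53%) were 2-fold or more higher in dividing cells and 757 (7.31%) were 2-fold or more lower. In cKO 1130 of 11450 genes (9.87%) were higher and 666 (5.82%) lower. Of the 10244 genes measured in both, 482 were higher in both libraries, 65.9% of the 731 in Ctrl and 58.4% of the 825 in cKO. Of the genes that were lower, 120 were shared, 16.1% of 745 in Ctrl and 25.6% of 468 in cKO.

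Genes of mitosis had the widest ratios. Of the G2 and M phase list 49 of 51 measured genes were at least 2-fold higher in Ctrl (median log2 ratio 5.36) and 52 of 54 in cKO (6.10), none lower. Pbk, a mitotic kinase, was found in 16 of 16 dividing and 15 of 2120 other luminal cells in Ctrl, and in 41 of 46 and 12 of 3725 in cKO. Its level was 108 against 0.228 CPM in Ctrl and 126 against 0.157 CPM in cKO. Nusap1, a spindle protein gene, had 149 against 0.456 CPM and 130 against 0.470 CPM. Others with wide ratios were Spc24 of the kinetochore, Cdca8 of the passenger complex, Cenpf of the centromere, Tpx2 of the spindle and Cdc20, the activator of the anaphase-promoting complex.

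DNA synthesis genes were higher as well. Of the S phase list 39 of 40 were at least 2-fold higher in each library, with median log2 ratios of 3.48 and 3.78. Rrm2, a subunit of ribonucleotide reductase, ran from 0 to 13.3 per 10000 with a median of 1.51 in Ctrl dividing cells and from 0 to 21.6 with a median of 2.18 in cKO, and its median was 0 in the other luminal cells of both. Its summed level was 250.2 against 5.75 CPM in Ctrl and 270.0 against 7.03 CPM in cKO. Tk1, the thymidine kinase, had 113 against 1.98 and 84.7 against 1.81 CPM. Of the DNA damage response list 12 of 15 genes in Ctrl and 15 of 17 in cKO were at least 2-fold higher.

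Chromatin and cytoskeleton genes followed in part. H2afz, a histone variant made throughout the cycle, ran from 3.56 to 38.8 per 10000 (median 21.0) in Ctrl dividing cells against a median of 3.51 in the others, and from 8.70 to 53.5 (median 26.5) against 3.61 in cKO. Stmn1, a microtubule regulator, had medians of 10.2 and 8.98 in dividing cells against 0.112 and 0 in the others. The dividing and other cells overlap for both genes, since single other luminal cells reached 65.6 for H2afz and 17.3 for Stmn1. Hist1h1b, a linker histone of S phase, had 279 against 1.33 CPM in Ctrl and 341 against 2.48 CPM in cKO, whereas Hist1h2bc was at 640.0 against 1334 and 448 against 734.5 CPM. Histone genes of this cluster resemble each other and their transcripts mostly lack a poly(A) tail, so their counts are uncertain. Of the condensin and chromosome structure list 15 of 18 genes were at least 2-fold higher in both libraries, and of the tubulin list 4 of 11.

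**Figure D4:**
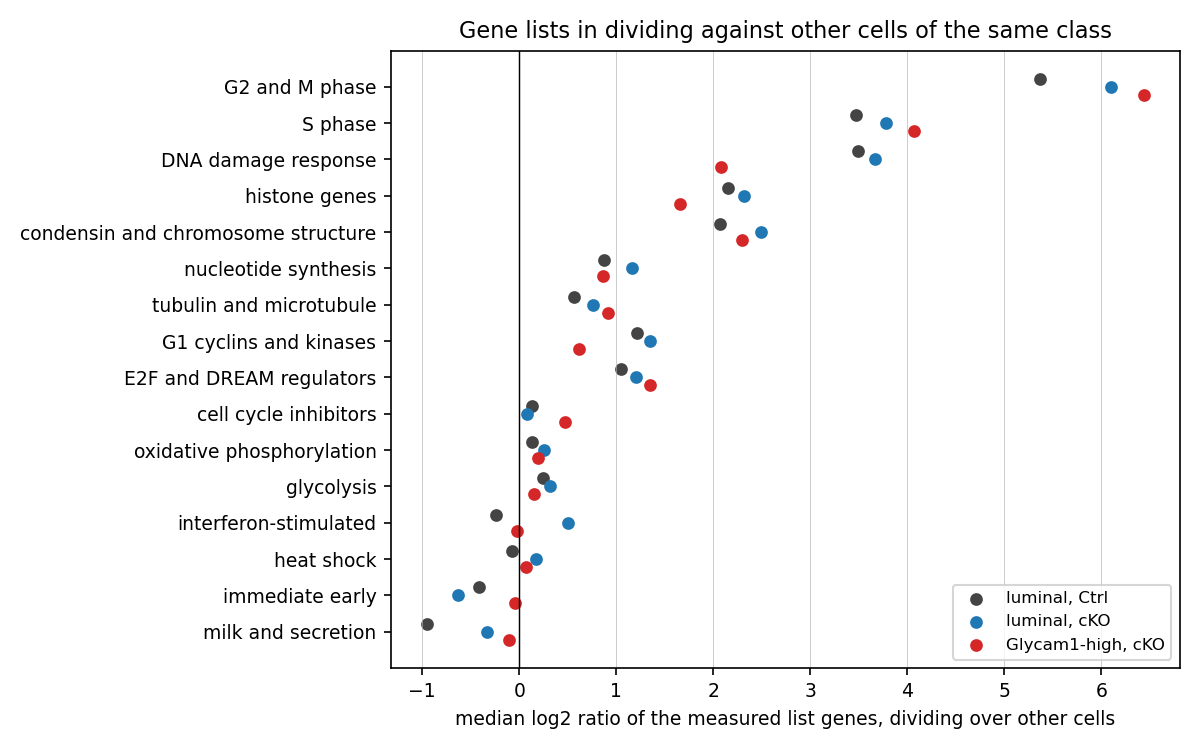
Median log2 ratio of the measured genes of each list in dividing against other cells of the same class (x axis), with 1 point each for Ctrl luminal, cKO luminal and cKO Glycam1-high cells. The G2 and M phase and S phase lists lie far to the right, with medians of 3.48 to 6.44, and the oxidative phosphorylation list lies near 0.

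Many genes that start the cycle were higher in dividing luminal cells. Of the G1 cyclin and kinase list 8 of 13 measured genes were at least 2-fold higher and 0 lower in Ctrl. In cKO 8 of 12 were higher and 1 lower. Over all genes, 7.53% and 9.87% were that much higher. Ccne1, the cyclin of S phase entry, had 46.9 against 1.26 CPM in Ctrl and 40.9 against 1.10 CPM in cKO, and E2f1, which activates DNA synthesis genes, 25.4 against 1.57 and 36.5 against 1.19 CPM. Cdk4, the kinase partner of the D cyclins, had smaller ratios, 1.79 (1.54 to 2.08) in Ctrl and 2.39 (2.16 to 2.64) in cKO. Foxm1, the activator of mitotic genes, had 13.7 against 0.684 and 6.32 against 0.300 CPM.

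Ccnd1, the cyclin D1 gene named in the study's title, did not mark dividing luminal cells. It ran from 0 to 2.24 per 10000 with a median of 0.596 in the 16 Ctrl dividing cells, against a median of 0.508 in the other luminal cells. In cKO it ran from 0 to 8.11 with a median of 0.919 in the 46 dividing cells, against 0.804 in the others. The summed levels were 73.3 against 87.8 CPM in Ctrl, a ratio of 0.835 (0.656 to 1.05), and 143 against 133 CPM in cKO, a ratio of 1.08 (0.957 to 1.21). Both intervals include 1, which does not show that the levels are equal. Glycam1-high cells held more Ccnd1 than luminal cells, with 607 CPM in dividing and 694 CPM in other cells of that class, and a ratio of 0.876 (0.804 to 0.953).

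Myc, a growth regulator often paired with proliferation, was lower in dividing luminal cells. Its median was 0 per 10000 in the dividing cells of both libraries, with a UMI in 7 of 16 and 19 of 46 cells, against medians of 0.504 and 0.404 in the shallower other cells. The ratio was 0.505 (0.353 to 0.700) in Ctrl and 0.312 (0.228 to 0.417) in cKO. In Glycam1-high cells it was 1.09 (0.719 to 1.60).

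Cell cycle inhibitors were not lower as a group. Cdkn2c, which encodes the Cdk4 inhibitor p18, had 20.5 against 3.07 CPM in Ctrl and 24.3 against 3.14 CPM in cKO, so it was higher in dividing cells of both. Cdkn2d, the p19 gene of the same family, had ratios of 3.60 (2.66 to 4.77) and 5.39 (4.44 to 6.50). Cdkn1a, which encodes p21, went different ways, with ratios of 1.41 (1.28 to 1.56) in Ctrl, 0.741 (0.678 to 0.808) in cKO luminal cells and 2.17 (1.91 to 2.46) in Glycam1-high cells. Btg1, an antiproliferative gene, had ratios of 0.675 (0.600 to 0.756) and 0.468 (0.425 to 0.515).

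The Rb-family gene of quiescence, Rbl2 (p130), had 1 UMI in the Ctrl and 2 UMIs in the cKO dividing luminal cells. Its ratio was 0.234 (0.00589 to 1.31) and 0.193 (0.0233 to 0.701). Rbl1 (p107), which is itself an E2F target, had the opposite direction, at 21.5 against 2.51 CPM in Ctrl and 12.6 against 1.92 CPM in cKO. In all, 4 of 16 inhibitors were at least 2-fold higher and 2 lower in Ctrl, and 3 higher and 2 lower in cKO. Their median log2 ratios were 0.13 and 0.08. Over all genes, 7.53% were that much higher and 7.31% lower in Ctrl, and 9.87% and 5.82% in cKO.

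**Figure D5:**
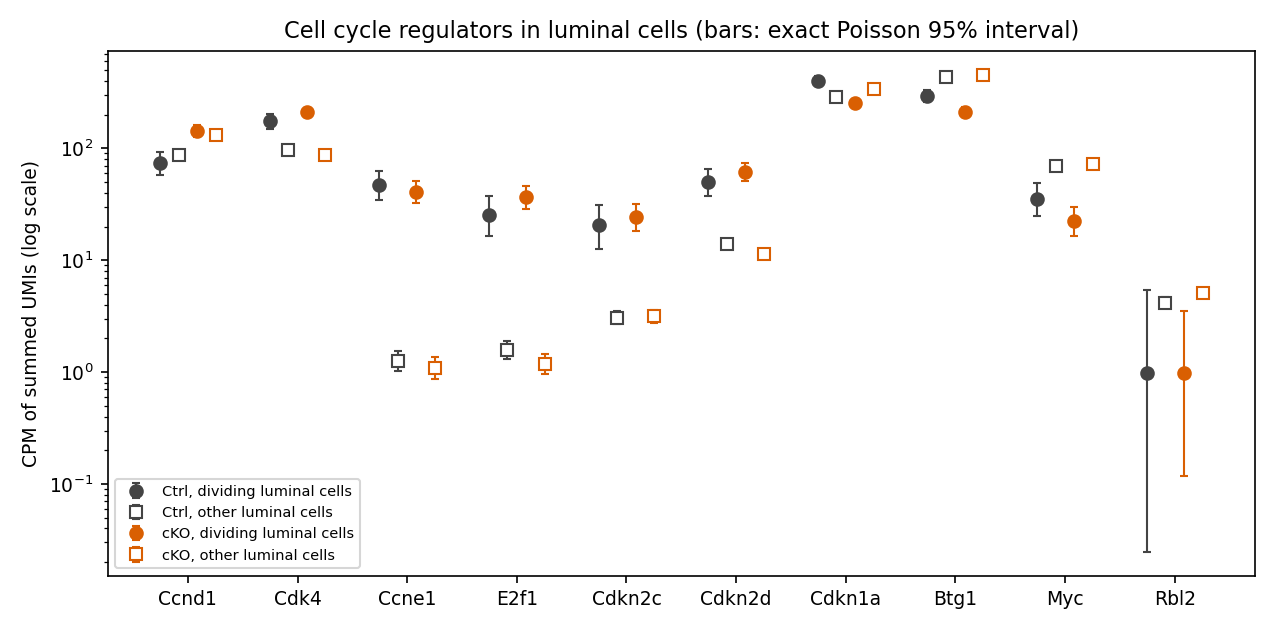
Summed level in CPM (y axis, log scale) of 10 regulators of the cycle in dividing (filled circles) and other (open squares) luminal cells of each library, with exact Poisson 95% intervals for counting error. The filled circles of Ccne1 and E2f1 lie far above the open squares, those of Ccnd1 lie close to them, and those of Myc lie below them in both libraries.

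Hormone-sensing markers were mostly within 2-fold of the other luminal cells. Of the 10 hormone-sensing markers 1 was at least 2-fold higher in Ctrl and none in cKO, with none lower in either. Of the 7 general luminal markers none was 2-fold apart in Ctrl and 1 was lower in cKO, with medians of -0.17 and -0.63. Of the 11 luminal progenitor markers 1 was lower in Ctrl and 2 in cKO. Over all genes, 7.53% were 2-fold or more higher and 7.31% lower in Ctrl, and 9.87% and 5.82% in cKO. Esr1, the ERα gene, had 26.4 against 22.8 CPM in Ctrl, a ratio of 1.16 (0.760 to 1.69), and 22.4 against 23.2 CPM in cKO, a ratio of 0.966 (0.705 to 1.29). The progesterone receptor gene Pgr had ratios of 1.12 (0.847 to 1.45) and 1.43 (1.21 to 1.68). Cited1, a coactivator of estrogen receptor, had ratios of 1.66 (1.59 to 1.74) and 1.83 (1.74 to 1.92). Areg, the growth factor through which estrogen acts on neighbouring cells, had 2556 against 1303 CPM in Ctrl and 1484 against 2647 CPM in cKO, ratios of 1.96 (1.89 to 2.04) and 0.561 (0.541 to 0.581). Its median per 10000 was 14.4 in dividing and 4.62 in other cells of Ctrl, and 10.5 and 9.63 in cKO, so the lower sum in cKO was not seen in the median cell. Within the Prlr-only kind, 1 of 10 hormone-sensing markers was at least 2-fold lower in dividing cells of Ctrl and none in cKO. Of 8 measured genes of the hormone receptor list 4 were that much lower in Ctrl and 1 in cKO. Their median log2 ratios were -0.92 and -0.30, on 7 and 20 dividing cells. Over all genes in this kind, 10.6% and 7.47% were that much lower.

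Several milk genes were lower in dividing luminal cells. Of the milk and secretion list 6 of 12 genes were at least 2-fold lower in Ctrl and 4 of 13 in cKO, and none higher. Over all genes, 7.31% in Ctrl and 5.82% in cKO were that much lower. Trf, transferrin, had 571 against 1242 CPM in Ctrl and 283 against 336 CPM in cKO. Weighting the other luminal cells to the same mix of Prlr and Wfdc18 kinds left 1 of 12 milk genes at least 2-fold lower in Ctrl, with a median log2 ratio of -0.41 in place of -0.95. In the Prlr-only cells of cKO the median of 9 milk genes was 0.15, and 2 of them passed 2-fold upward and 1 downward. Over all genes of that kind, 12.4% passed 2-fold upward and 7.47% downward. Of the heat shock list 3 of 12 genes were at least 2-fold lower in each library and none higher, with medians of -0.08 and 0.17. Hspa1a, a heat shock chaperone gene nearly identical to Hspa1b, so that reads of the pair may not be separable, had 97.7 against 527 CPM in Ctrl and 80.3 against 338 CPM in cKO. Among immediate early genes 5 of 16 were at least 2-fold lower in cKO, with Fosl1 at 63.7 against 230.5 CPM, and 0 of 15 in Ctrl.

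Energy genes were close to the level of the other cells. None of 21 oxidative phosphorylation genes was at least 2-fold apart in either library, with median log2 ratios of 0.13 and 0.25, and of 14 glycolysis genes 1 was higher and 1 lower in Ctrl and 1 lower in cKO. The median over all genes was -0.04 in Ctrl and 0.08 in cKO.

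The Glycam1-high cells showed the same cell cycle lists against their own class. Of 9147 genes 816 (8.92%) were 2-fold or more higher in the 21 dividing cells and 356 (3.89%) were that much lower, with a median log2 ratio of 0.17. All 35 measured S phase genes and all 46 measured G2 and M phase genes were higher, with medians of 4.07 and 6.44. Rrm2 had 124 CPM against 0.371 CPM, from 3 UMIs, a ratio of 334 (112 to 1640.3), and Ccne2, a second E-type cyclin, 33.2 against 1.24 CPM. No blood endothelial marker of 8 was 2-fold apart. Of the interferon-stimulated list, 0 of 18 genes were 2-fold apart in these cells, and the summed list had a median of 14.4 UMIs per 10000 in the dividing and 11.5 in the other cells.

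Dividing luminal cells of cKO were then set beside those of Ctrl. The Ctrl side has 16 cells, under the 20 set as a minimum for such a comparison, which was therefore added after the counts were seen. Of 8459 genes 453 (5.36%) were 2-fold or more higher in cKO and 370 (4.37%) were that much lower. In luminal cells that were not dividing the figures were 1062 (7.25%) and 944 (6.44%) of 14651 genes.

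Few genes of the cell cycle lists were 2-fold apart between the libraries, in cells that the rule had chosen on both sides for cell cycle genes. Of the S phase list 1 of 40 genes, Mcm4 of the replicative helicase, was at least 2-fold higher in cKO, at 85.6 against 40.1 CPM. Of the G2 and M phase list 2 of 54 were, Ttk and Sgo1, which guard chromosome segregation, and none of either list was lower. The median log2 ratios were 0.08 and 0.07, against 0.01 over all genes.

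The Prlr-only kind was also compared alone. The median log2 ratio of 49 G2 and M phase genes was 0.87 and that of 39 S phase genes 0.39, against 0.11 over 5504 genes, on 20 cKO and 7 Ctrl cells. The 6 genes of the rule had a median of 24.2 per 10000 in the cKO and 15.0 in the Ctrl cells of this kind, whose median totals were 27588.5 and 64764 UMIs. The rule asks a fixed number of UMIs of shallow and deep cells alike, and its part in this difference was not tested.

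The genes most different between the libraries in dividing cells differed in the other luminal cells too. Of the 10 highest and 10 lowest ratios named by rule, 9 and 10 were past 2-fold in the same direction in luminal cells that were not dividing. Calca, which encodes calcitonin and its related peptide, was found in 16 of 16 Ctrl dividing cells, from 0.160 to 41.2 per 10000 with a median of 4.52. It was found in 2 of 46 cKO dividing cells, with 2 UMIs in all. Its log2 ratio was -10.15 in dividing cells, 1136-fold lower (314 to 9390.3), and -11.81 in other luminal cells. Plac8, a small cysteine-rich protein gene, ran from 0 to 30.9 per 10000 with a median of 11.3 in Ctrl and from 0 to 5.63 with a median of 0.483 in cKO.

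Aldh3a1, an aldehyde dehydrogenase, was also lower in cKO dividing cells (308 CPM in Ctrl, 5.35 in cKO). Defb1, with 2 UMIs in cKO, had a ratio of 0.00618 (0.000743 to 0.0227), and Mgp, with 3 UMIs, 0.0121 (0.00247 to 0.0363). Arg1, Wfdc3, Tex11 and Ly6c1 had log2 ratios from -3.18 to -2.74. The genes higher in cKO were Gdf15, a stress-induced growth factor, with 3 UMIs in Ctrl and a ratio of 36.8 (12.4 to 180.0), and Pcp4, also with 3 UMIs in Ctrl and a ratio of 18.6 (6.20 to 91.5). Krt15, Krt17, Sprr1a, Ido1, Hs3st6, Lcmt1 and Ggct had log2 ratios from 2.65 to 3.63. For Spp1, osteopontin, 1 cell held 46.9% of the cKO UMIs and the other luminal cells went the opposite way, with log2 ratios of 3.51 and -1.17.

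Ccnd1 was higher in cKO than in Ctrl in dividing and in other luminal cells. The ratio was 1.95 (1.51 to 2.55) in dividing cells and 1.51 (1.47 to 1.56) in the others, and the intervals overlap. Interferon-stimulated genes were higher in cKO as a list, with 10 of 12 at least 2-fold higher in dividing cells (median log2 ratio 1.97) and 9 of 18 in the others (1.01). Over all genes, 5.36% and 7.25% were that much higher. Rtp4, which such signals induce, had 63.7 against 10.7 CPM in dividing cells, and Isg15, a ubiquitin-like modifier, 71.5 against 19.5 CPM. The summed list ran from 0.274 to 10.1 per 10000 with a median of 2.03 in the 16 Ctrl cells, and from 1.70 to 27.3 with a median of 4.38 in the 46 cKO cells, ranges that overlap. Some markers of other cell types were at least 2-fold higher in cKO as well. In luminal cells that were not dividing these were 3 of 3 measured venule markers (median log2 ratio 2.64), 5 of 8 blood endothelial markers (1.90) and 5 of 7 myeloid markers (2.16). Other lists there did not rise alike. Of 11 basal markers 2 were higher (0.29), of 3 lymphatic markers 1 was higher and 1 lower (0.03), and of 2 fibroblast markers 1 was lower (-0.82). In dividing cells the 1 measured venule marker, Glycam1, had a log2 ratio of 2.36 and the 1 lymphatic marker 2.95. Of 4 basal markers 3 were at least 2-fold higher (2.15). The 1 blood endothelial and the 1 fibroblast marker were at 0.29 and -0.48. In cKO the other Glycam1-high cells held a median of 11.5 UMIs per 10000 of the interferon list against 3.14 in the other luminal cells. The part of these cells' RNA in the higher interferon list was not tested.

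Several signals between cells were lower in cKO dividing cells. Of 6 measured paracrine genes 4 were at least 2-fold lower in cKO dividing cells, with a median log2 ratio of -1.38. These 4 genes were Calca, Wnt4, Hbegf and Btc, and over all genes 4.37% were that much lower. In luminal cells that were not dividing the median of 10 measured genes of this list was 0.20, with 2 past 2-fold upward and 3 downward. Over all genes in those cells, 7.25% were past 2-fold upward and 6.44% downward. Wnt4, which progesterone induces, had 101 against 251 CPM, a ratio of 0.403 (0.334 to 0.486), and 0.410 (0.399 to 0.421) in luminal cells that were not dividing. Hbegf, a ligand of the EGF receptor, had a ratio of 0.367 (0.268 to 0.502) in dividing cells but 1.42 (1.38 to 1.47) in the others.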

How the data were processed

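Single-cell RNA libraries of mammary cells were used, 1 of Ctrl and 1 of cKO, with 95520633 and 103668011 UMIs in 4237 and 6257 barcodes. The deposited values were counts, whole UMIs per gene and barcode without normalization. Cell Ranger 2 and mm10 are named per the submitters' processing notes, while the software version is 3.0.0 per the file headers. Of 6 barcodes shared by the libraries, 5 were kept in both and none was dividing.

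The members, gates and gene lists were chosen with earlier results of these data known. Counts were summed per class and library, scaled to a total of 1000000 (CPM) and compared for genes with 20 UMIs or more, with a floor of 3 counts. Exact 95% intervals are Clopper-Pearson for shares and conditional binomial for ratios. For a share with a count of 0, the same exact interval gives the upper limit. Named genes are those of the rule and the gates, the 10 highest and 10 lowest ratios of a comparison (100 UMIs or more in the higher group, in 5% or more of its cells, or 10% between libraries) and up to 4 members of each list by UMIs and by ratio. Markers of single cells were chosen after their values were seen. Of the genes this rule names, a few are not reported here.

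The calculation of ratios was run on simulated Poisson sums with set fold changes. These sums held no spread between cells, so the run checks the calculation and not the ratios of these data. Alternatives were other UMI rules, filters, lineage readings, fold limits, comparison cells and TMM factors (edgeR 4.0.16). Python 3.11.15, scipy 1.17.1 and Scrublet in scanpy 1.11.5 were used.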

Additional observations from a re-analysis of the deposited data

Results flagged for a closer look

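In cKO 2 barcodes outside the kept cells met the UMI rule for dividing cells, and in Ctrl none did. They failed only the limit on mitochondrial UMIs, with 12.0% and 10.6% against the limit of 10%. The first held 7214 UMIs, 11 of them from 5 of the 6 genes, and 40 UMIs of Krt14. The second held 3799 UMIs, 13 of them from 5 genes, and 59 UMIs of Krt18.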

How the results depend on the processing

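With 1 library per group the shares rest on counts of 21 and 79 cells. The share of dividing cells stayed between 0.539% and 0.761% in Ctrl and between 1.26% and 1.69% in cKO under every UMI rule, filter, thinning and doublet setting tried. Reading lineage by the highest marker list put 0% of Ctrl dividing cells in the lymphatic class in place of 4.76%. Scaling each list, an alternative chosen after seeing the data, also gave 0% there, and in cKO 45.6% luminal in place of 58.2% and 6.33% Glycam1-high in place of 26.6%. The share of cells with more S than G2 and M phase UMIs was 28.6% in Ctrl and 30.4% in cKO. It became 61.9% and 46.8% with genes scaled to their mean, and 15.2% in cKO with the genes of the rule included. Counts of genes at least 2-fold apart followed the limit by construction. At 1.5-fold the genes higher and lower in dividing luminal cells were 1492 and 1806 in Ctrl and 2267 and 1580 in cKO, and between the libraries 1185 and 1069. At 3-fold they were 419 and 302, 544 and 254, and 154 and 101. No value at least 2-fold apart changed direction under the alternatives run. Among smaller ones, the log2 ratio of Wfdc18 in Ctrl went from -0.34 to 0.24 when the other luminal cells were weighted to the same mix of kinds. The S phase median between the libraries went from 0.08 to -0.17 without the 3 deepest dividing cells of each. Both alternatives were chosen after seeing the data. TMM factors moved the median of all genes by at most 0.10 on the log2 scale. Of the main shares, positions and counts under an alternative, 93 values stayed near the main one and 19, given above, moved. No paired analysis was possible because each group has 1 library.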
